A study of Mus musculus with 22 samples.

Results

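Distal intergenic sites are stretches of the genome that lie away from promoters and gene bodies. Among 956 sites that the deposited comparison of cocaine with saline listed for the transcription factor E2F3a, 231 were annotated as distal intergenic and stood outside dense runs of sites. A run was 5 or more listed sites joined by gaps below 100 kb, and 201 of the 956 sites lay in 17 such runs. Of the 231 sites, 105 had a lower mean count after cocaine and 126 a higher one. The higher sites made up 54.5% of these sites, against 21.8% of 285 promoter sites and 36.4% of 239 gene body sites outside runs. Without the 2 libraries that stood apart, cocaine 5 and 6, the shares were 45.5%, 21.8% and 33.1%.

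E2F proteins are transcription factors that bind DNA as dimers with DP proteins and are best known for the control of genes of the cell cycle and DNA replication. E2F3a is the longer product of the E2f3 gene, and the sites best described for it lie in promoters. The nucleus accumbens is a part of the ventral striatum that takes part in reward and in the response to addictive drugs, and most of its neurons are medium spiny neurons that no longer divide. Distal sites can hold enhancers, which act on promoters over long distances, so the nearest gene named at a site need not be one that the site controls.

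Binding was mapped by CUT&RUN, in which an antibody tethers a nuclease to chromatin and the DNA released around the bound protein is sequenced. Nuclei came from frozen bilateral punches of the nucleus accumbens of wild-type C57BL/6J female and male mice injected intraperitoneally in the home cage with saline or with cocaine at 20 mg per kg for 7 days. The labels name 7 E2F3a libraries from cocaine mice, 2 female and 5 male, and 4 from saline mice, 2 of each sex, beside IgG libraries that carry no values in the table of sites. Ages are not given, and nothing states that each library came from its own mouse, so the spread between libraries may be partly technical. No expression was measured, so the tissue could not be checked by marker genes, and in whole tissue fewer cells with a bound site and less binding per cell cannot be told apart.

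The deposited table holds normalized counts for 6 cocaine and 4 saline libraries without names, called here cocaine 1 to 6 and saline 1 to 4 in their order in the table. Their sexes are therefore unknown, and which labelled cocaine library is absent is unknown too. The values of each library were whole multiples of 1 step, the worth of 1 read, which ranged from 0.384 in saline 3 to 2.21 in cocaine 5. Reads over all listed sites ranged from 41437 in saline 4 to 153637 in saline 3, and a count of 0 allows up to 3 reads, or 1.15 to 6.64 normalized counts by library, for counting error only. Cocaine 5 and 6 stood apart at the higher sites, as described below, and the main counts and the sites they lead are also given without them.

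All 956 sites had been listed because this contrast differed in these libraries, so the counts and fold changes at the distal sites are a description of the listed sites and not new support for a difference. By the authors' deposited table, 102 of the 105 lower sites and 125 of the 126 higher sites had an adjusted p below 0.05. So did 947 of all 956 listed sites, 99.1%, with 49.6% of the 956 called lower and 49.5% called higher. The distal sites were thus called about as often as all listed sites. The 4 distal sites that were not called had adjusted p-values from 0.0558 to 0.161 by diffReps' negative binomial test in the authors' deposited table. The border of the rule was thin: 1 of the 231 sites stood in a group of 4 listed sites, the lower site near Bcl11a with a log2 fold change of -1.78 in the authors' deposited table. On the other side of that border, the 14 distal sites in runs of exactly 5 were all higher, with a median log2 fold change of 1.055 in the authors' deposited table and a range of 0.82 to 1.74.

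The 2 higher sites that overlapped the promoter window of a RefSeq gene model are shown first, because sequence was held for them alone. Each site covered only bases before the start and did not reach the start itself. Both windows run from 250 bases before to 50 bases after the start, as given by RefSeq on GRCm38.p6, and are written 5′ to 3′ along the gene's strand with the bases inside the listed site in capitals. The first is the window of Gm46017 on the minus strand at chr7:75437388-75437687, under the site nearest to Akap13, and the second that of Gm51571 on the plus strand at chr8:55114679-55114978, under a site nearest to Gpm6a.
Gm46017: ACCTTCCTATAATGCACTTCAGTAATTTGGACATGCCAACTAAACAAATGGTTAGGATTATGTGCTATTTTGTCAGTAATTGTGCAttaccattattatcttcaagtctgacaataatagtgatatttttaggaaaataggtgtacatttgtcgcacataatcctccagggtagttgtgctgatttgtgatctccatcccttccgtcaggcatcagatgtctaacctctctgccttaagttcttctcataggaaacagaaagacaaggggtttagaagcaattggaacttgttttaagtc
Gm51571: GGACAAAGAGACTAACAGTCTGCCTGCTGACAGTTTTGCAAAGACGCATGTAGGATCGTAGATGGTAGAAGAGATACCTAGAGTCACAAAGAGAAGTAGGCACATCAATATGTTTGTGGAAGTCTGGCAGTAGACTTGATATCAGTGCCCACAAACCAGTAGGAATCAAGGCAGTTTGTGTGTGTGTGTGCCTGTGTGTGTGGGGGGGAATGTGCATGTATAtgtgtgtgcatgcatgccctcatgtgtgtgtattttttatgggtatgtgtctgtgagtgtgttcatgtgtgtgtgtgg
The Akap13 site covered 86 of the 300 bases of the first window and the Gpm6a site 222 of the 300 bases of the second. Neither window held any of 4 spellings of the core E2F motif, which were searched on both strands. Of 32851 RefSeq mouse promoter windows of the same length, 9.57% held at least 1 of the 4, and a window can hold more than 1. The spelling TTCCCGC stood in 4.6% of windows, the spelling TTGGCGC in 2.45%, the spelling TTGCCGC in 1.81% and the spelling TTCGCGC in 1.59%. The absence of a match says only that these letters were not in these windows. The windows had a GC content of 37.3% and 45.7%, below the median of 52.7% over all windows, and the second held a TG repeat of 7 units. For the other distal sites the tables used here held no sequence.

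The share of higher sites by distance from the nearest transcription start was lowest next to genes. Of the 34 distal sites between 3 and 10 kb from a start, 47.1% were higher, and of the 82 sites between 10 and 50 kb, 50% were. The share was 62.1% of 66 sites between 50 and 200 kb and 57.1% of 49 sites beyond 200 kb. Without cocaine 5 and 6 the shares from the nearest to the farthest bin were 38.2%, 40.2%, 48.5% and 55.1%. These are shares of the listed sites, and the differences between the bins were not tested. The lower sites lay a median of 42213 bases from a start, from 3621 bases to over 1 Mb, and the higher sites a median of 58276.5 bases, from 3541 bases to over 1 Mb.

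**Figure D1:**
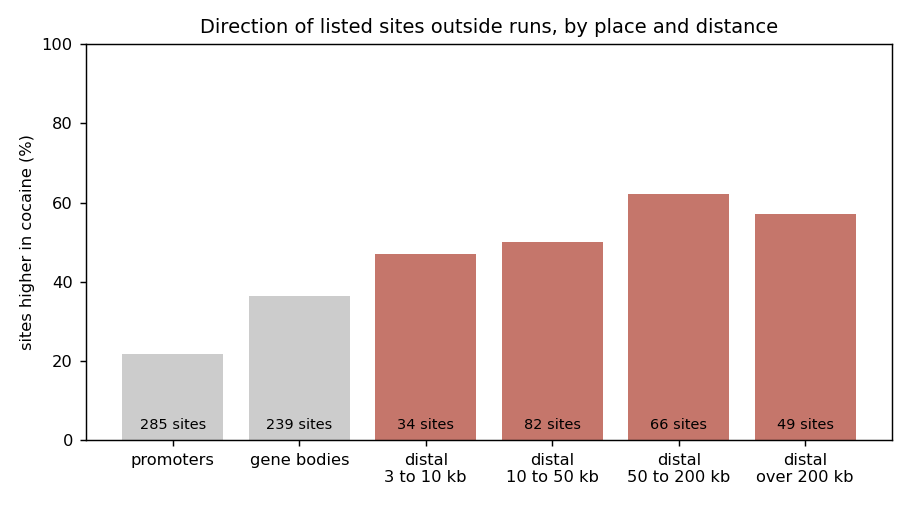
Share of listed sites outside runs with a higher mean in cocaine, in percent on the vertical axis, for promoters, gene bodies and 4 bins of distal sites by distance to the nearest transcription start, with the number of sites in each bar. The bars stand at 21.8% for promoters and 36.4% for gene bodies and between 47.1% and 62.1% for the distal bins; no error is drawn because the bars count every listed site.

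By the authors' deposited table, the median log2 fold change of the lower sites was -1.13, -1.22, -1.10 and -1.42 from the nearest to the farthest bin. That of the higher sites was 1.085, 0.99, 0.91 and 1.02 in the authors' deposited table. The size of the listed differences showed no steady trend over the 4 bins. Both directions lay on both sides of the nearest start, with 60 lower sites upstream and 45 downstream, and 71 higher sites upstream and 55 downstream. All 231 sites lay on autosomes. Chromosome 11 held 13 lower and 6 higher sites and chromosome 13 held 11 lower and 4 higher, whereas chromosome 9 held 1 lower and 7 higher and chromosome 18 held 0 lower and 5 higher.

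The lower sites were sites of modest signal in saline whose enrichment in cocaine was mostly near 1. Over the 105 sites the authors' deposited table gave a median of the group means of 22.32 normalized counts in saline and 10.36 in cocaine, with a median log2 fold change of -1.19 and quartiles of -1.40 and -1.01. The table also gives each group an enrichment over a background whose source is not given. Its median over the lower sites in the authors' deposited table was 2.68 for the saline group and 1.09 for the cocaine group. It was at least 2 in saline at 85 of the 105 sites, and it was lower in cocaine than in saline at 96 of them.

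Among the lower sites, the one with the smallest adjusted p lay near Adgrb1, which encodes an adhesion receptor of the brain with a role in the clearance of dying cells and at synapses. This site, chr15:74593202-74594700 in mm10, was 5278 bases downstream of the start. Its normalized counts were 37.8, 22.9, 31.2, 33.7, 13.3 and 22.2 in cocaine 1 to 6 and 52.1, 50.2, 52.6 and 47.0 in saline 1 to 4. Every cocaine library lay below every saline library, and the saline libraries were close together. The cocaine mean was 26.9 ± 9.03 (SD, n = 6), against a saline mean of 50.5 ± 2.54 (SD, n = 4). The log2 fold change was -0.91 and the adjusted p from diffReps' negative binomial test was 1.35e-05 in the authors' deposited table.

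The largest fall of a lower site lay far upstream of Grm3, the gene of a metabotropic glutamate receptor that lowers transmitter release. The site, chr5:10028002-10029200 in mm10, was 302832 bases from the start. Its counts were 3.85, 2.08, 0, 5.19, 6.64 and 3.42 in cocaine 1 to 6 and 10.9, 14.0, 9.98 and 26.3 in saline 1 to 4. The groups did not overlap, and the cocaine values rested on 0 to 6 reads a library. The log2 fold change was -2.11 and the enrichment 0.32 in cocaine and 2.93 in saline in the authors' deposited table.

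A site near Vrk2, which encodes a protein kinase, showed the same order. Its counts were 7.05, 0, 2.01, 5.19, 8.85 and 8.55 in cocaine 1 to 6 and 15.8, 14.6, 13.8 and 22.6 in saline 1 to 4, again without overlap. The site near Izumo3, a gene of sperm, had 7.78 to 22.1 in cocaine and 25.3 to 34.3 in saline, also without overlap. At the site near Dsel, an enzyme of dermatan sulfate synthesis, the counts were 57.7, 57.2, 75.5, 49.3, 28.8 and 13.7 in cocaine 1 to 6 and 83.7, 85.8, 79.0 and 69.5 in saline 1 to 4. Here cocaine 3 lay above saline 4, and cocaine 5 and 6 were the 2 lowest libraries.

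The remaining lower sites with the smallest adjusted p overlapped between groups. The site near Mir3966, a microRNA gene, had 7.28 to 22.1 in cocaine and 13.4, 19.6, 22.8 and 56.4 in saline, the highest of them in saline 4. The site near Akap1, which anchors protein kinase A at mitochondria, had 2.01 to 14.3 in cocaine and 14.1 to 28.2 in saline. The overlap there was a single cocaine library, cocaine 4, just above saline 1. The site near Cibar1, a gene of a BAR-domain protein of cilia, had 13.0 to 68.4 in cocaine and 56.4 to 72.9 in saline, with cocaine 3 inside the saline range.

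The highest count of a lower site was near Ppp2r3d, a regulatory subunit of protein phosphatase 2A. Its counts were 120, 141, 147, 137, 53.1 and 70.1 in cocaine 1 to 6 and 141, 133, 156 and 145 in saline 1 to 4. Only cocaine 1, 5 and 6 lay below the saline range, and without cocaine 5 and 6 its log2 ratio went from -0.36 to -0.07. It was 1 of 4 lower sites in a called cocaine peak and the 1 lower site in a called saline peak. Its enrichment in the authors' deposited table was higher in cocaine, at 4.21, than in saline, at 3.08.

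**Figure D2:**
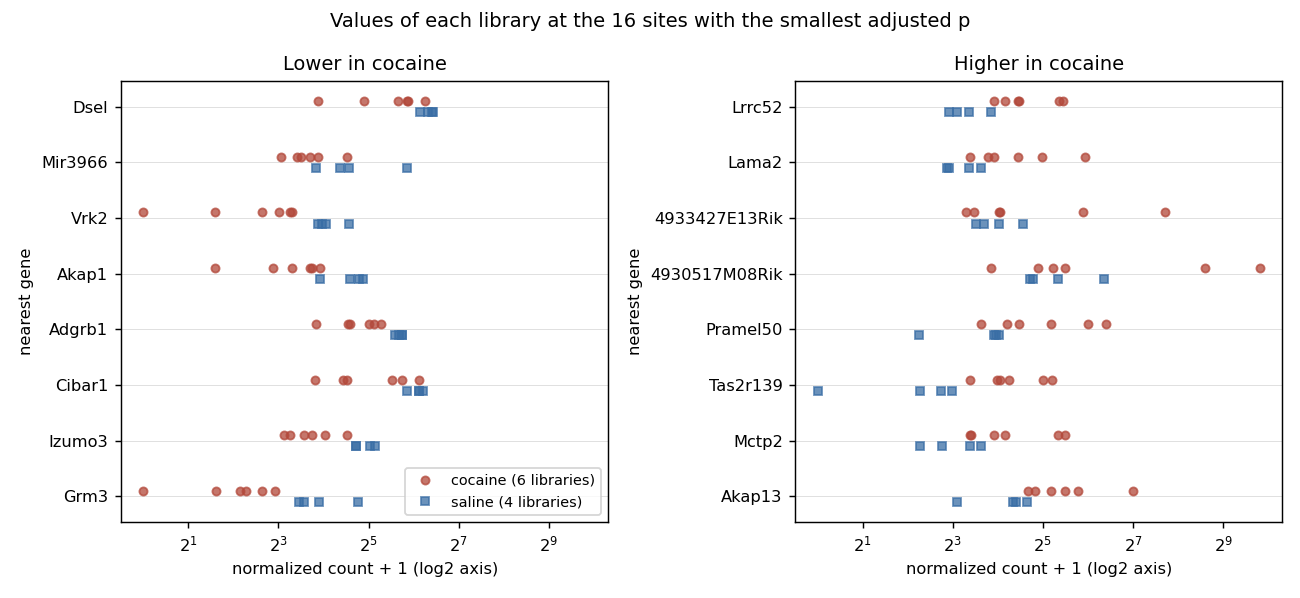
Normalized count plus 1, on a log2 horizontal axis, of each library at 8 lower and 8 higher sites, labelled by nearest gene; they have the smallest adjusted p, except that 7 of the 8 higher sites were taken by largest fold from 30 sites tied in adjusted p; circles are the 6 cocaine libraries and squares the 4 saline libraries. At Grm3, Vrk2, Adgrb1 and Izumo3 all circles lie left of all squares, and at Lrrc52, Tas2r139 and Akap13 all lie right of them, while 4933427E13Rik and 4930517M08Rik have 2 high circles and the other circles among or left of the squares.

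Across the lower sites the 6 cocaine libraries moved alike. The median log2 ratio of a library to the saline mean, computed on counts plus 1, was -1.16, -1.29, -1.13, -1.26, -1.09 and -1.12 in cocaine 1 to 6. In saline 1 to 4 it was -0.14, -0.01, -0.13 and 0.29. The lowest of the 10 values belonged to a cocaine library at every lower site, and each cocaine library held it at 6 to 25 sites, the fewest in cocaine 1 and the most in cocaine 2.

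At 42 of the 105 lower sites, 40%, every cocaine library lay below every saline library. Among all listed sites this held at 228, or 23.8% of the 956 sites of both directions. The authors' deposited table called 474 of the 956 lower, so the distal share of 40% was not above that of all lower sites. Without cocaine 5 and 6, 99 of the 105, 94.3%, stayed at least 1.5-fold lower, and 0 turned direction. Among all listed sites 427 stayed that much lower, where 474 were called lower. The median log2 ratio was -1.12 with all libraries and -1.15 without those 2. The highest saline value belonged to saline 4, the library with the fewest reads, at 63 sites. Without saline 4, 100 of the 105 sites were still at least 1.5-fold lower, and the 5 others lay near Mir3966, Gm12108, Rap2b, Rps6ka1 and Ppp2r3d. In a limma fit on log2 counts plus 1 over all 956 sites, 73 of the 105 had an adjusted p below 0.05. That fit called 291 of the 956 lower, or 30.4%, where the authors' deposited table called 474 lower.

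The lower calls rested on few reads. The median number of reads at a lower site was 15, 8, 10, 7, 4 and 6 in cocaine 1 to 6 and 37, 34, 51 and 14 in saline 1 to 4. Cocaine 2 had 0 reads at 6 of the sites and cocaine 1 at 0 of them. The sites were narrow, with a median width of 1100 bases, and 6 of the 105 were wider than 1500 bases.

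The higher sites had a different make-up. Over the 126 sites the authors' deposited table gave a median of the group means of 36.5 normalized counts in cocaine and 18.2 in saline, with a median log2 fold change of 0.985 and a range of 0.32 to 2.46. The median enrichment in the authors' deposited table was 1.135 in cocaine and 0.76 in saline. It was at least 2 in cocaine at 26 sites, 20.6%, and higher in cocaine than in saline at 116. At most higher sites the enrichment in cocaine was therefore below 2. The sites had a median width of 1200 bases, and 34 of the 126 were wider than 1500 bases.

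The higher site with the smallest adjusted p lay near Tas2r139, a bitter taste receptor gene. Its counts were 14.8, 9.36, 18.1, 15.6, 31.0 and 35.9 in cocaine 1 to 6 and 3.80, 0, 6.91 and 5.64 in saline 1 to 4. The groups did not overlap, and the log2 ratio was 2.10 with all libraries and 1.60 without cocaine 5 and 6. The enrichment was 1.12 in cocaine and 0.20 in saline in the authors' deposited table, so the cocaine value stood near 1.

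Behind it, 30 higher sites shared 1 adjusted p in the authors' deposited table, and the 7 named next were the ones among them with the largest fold change. The site near Lrrc52, whose product is an auxiliary subunit of potassium channels, had 14.1, 20.8, 21.1, 16.9, 39.8 and 42.8 in cocaine 1 to 6. Saline 1 to 4 had 6.52, 13.4, 9.21 and 7.52, so that the groups did not overlap by a small margin. The Akap13 site shown above, whose nearest gene encodes an anchor of protein kinase A, had 24.4, 54.1, 44.3, 27.2, 35.4 and 126.5 in cocaine 1 to 6 and 20.1, 24.2, 19.2 and 7.52 in saline 1 to 4. The groups did not overlap by a margin of less than 1 read, and cocaine 6 was far above the rest. Both stayed at least 1.5-fold higher without cocaine 5 and 6, with log2 ratios of 0.92 near Lrrc52 and 1.04 near Akap13.

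A second group of these sites rested on other libraries. At the site near 4930517M08Rik, inside the RefSeq long noncoding RNA gene Gm34259, the counts were 13.5, 385.9, 36.2, 28.5, 44.3 and 906.3 in cocaine 1 to 6 and 39.1, 26.7, 25.3 and 80.8 in saline 1 to 4. Cocaine 2 and 6 held the high values, and the other 4 cocaine libraries lay within or below the saline range. At the site near 4933427E13Rik, cocaine 2 had 58.2 and cocaine 6 had 208.6, whereas the other cocaine libraries ranged from 8.85 to 15.6 and saline from 10.4 to 22.6. The site near Gm13580 had the same order, with 216.3 in cocaine 2 and 328.3 in cocaine 6, 14.1 to 35.4 in the other cocaine libraries and 5.76 to 67.7 in saline. Cocaine 2 and 6 were the 2 highest of 10 libraries at 5 higher sites in all, the other two near Rhob and Akap13. Without cocaine 2, 5 and 6, a choice made after seeing the data, the log2 ratio was -0.13 near 4933427E13Rik, -0.70 near 4930517M08Rik and -0.48 near Gm13580, and 0.67 near Rhob and 0.81 near Akap13.

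The sites near Lama2, a laminin chain of basement membranes, Mctp2, a calcium-binding membrane protein, and Pramel50 overlapped between groups. In each, cocaine 5 and 6 were the 2 highest libraries. The site near Lama2 had 59.7 in cocaine 5 and 30.8 in cocaine 6, against 9.36 to 20.8 in the other cocaine libraries and 6.36 to 11.3 in saline. At the site near Mctp2 cocaine 5 had 44.3 and cocaine 6 had 39.3, against 9.36 to 16.9 in the other cocaine libraries and 3.82 to 11.4 in saline. Without cocaine 5 and 6 the log2 ratios went from 1.45 to 0.71 near Lama2, from 1.44 to 0.65 near Mctp2 and from 1.62 to 0.78 near Pramel50.

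Over the 126 higher sites, cocaine 5 and 6 were the 2 highest of 10 libraries at 94, 74.6%. The same held at 30 of 62 higher promoter sites, 48.4%, and at 69 of 87 higher gene body sites, 79.3%. The median of each library's log2 ratio to the saline mean was 0.17, -0.18, 0.41, 0.77, 1.73 and 1.68 in cocaine 1 to 6 and -0.10, -0.07, -0.12 and 0.27 in saline 1 to 4. Cocaine 2 thus had a median below the saline mean. It was the lowest cocaine library at 79 of the 126 sites.

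**Figure D3:**
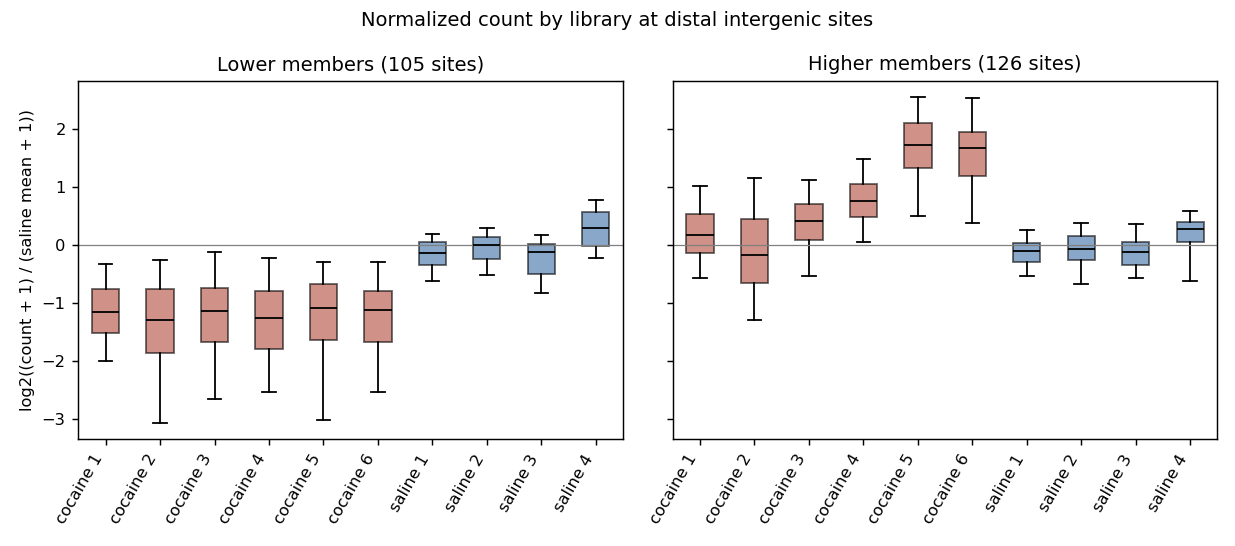
Log2 ratio of each library's normalized count to the saline mean, both plus 1, over the 105 lower sites on the left and the 126 higher sites on the right; boxes give quartiles with the median as a line, whiskers the 5th to 95th percentile, red the 6 cocaine and blue the 4 saline libraries. The 6 cocaine medians lie between -1.29 and -1.09 at the lower sites, whereas at the higher sites they run from -0.18 in cocaine 2 to 1.73 in cocaine 5.

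Without cocaine 5 and 6 the median log2 ratio of the higher sites went from 0.94 to 0.38, and 21 of the 126 sites turned direction. At least 1.5-fold higher without them were 45 sites, 35.7%. Of all 956 listed sites 476 were higher, and 155 of these 476 stayed at least 1.5-fold higher. Every cocaine library lay above every saline library at 16 of the 126 sites, 12.7%. Among the 476 higher listed sites this held at 54, which is 5.65% of the 956 sites of both directions. With cocaine 2 alone left out, the 16 rose to 31, but such a count can only stay or rise when a library is left out. By the limma fit, 19 of the 126 had an adjusted p below 0.05, beside 62 of the 476 higher listed sites, or 6.49% of all 956. Over the reads recovered from the steps, a quasi-Poisson test chosen after seeing the data gave 21 of the 126. It gave 80 of the 476 higher listed sites, or 8.37% of all 956. Of the 105 lower sites it gave 83, beside 338 of all 956 called lower, or 35.4%, where the authors' deposited table called 474 lower. At 62 higher promoter sites outside runs, by comparison, 42 stayed at least 1.5-fold higher without cocaine 5 and 6, with a median log2 ratio of 0.68 in place of 0.38. At 87 higher gene body sites 36 did, with a median of 0.43. These shares were set side by side without a test.

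The 16 higher sites whose groups did not overlap lay near Lrrc52, Angel2, Timm8a1, Gm28881, Gm30853, Mboat1, Pdzrn4, Tcf4, Sfxn3, 1700019E08Rik, Pex2, Gm21190, Tas2r139, Mir704, Akap13 and Myom2, and were picked out by these values. Their log2 ratio without cocaine 5 and 6 ranged from 0.44 near Mir704 to 1.60 near Tas2r139. The site near Mboat1, an acyltransferase of phospholipids, had 17.3, 14.6, 11.1, 16.9, 31.0 and 23.9 in cocaine 1 to 6 and 6.52, 3.18, 10.4 and 5.64 in saline 1 to 4. All 6 cocaine libraries lay above the highest saline value, and the enrichment in the authors' deposited table was 7.76 in cocaine and 1.09 in saline. The site near Pdzrn4 had 14.1 to 39.8 in cocaine and 5.64 to 12.1 in saline, with an enrichment of 6.45 and 2.02 in the authors' deposited table. The site near 1700019E08Rik lay inside the long noncoding RNA gene Gm13479, 291560 bases from Zeb2, a transcription factor of neural development and the nearest protein-coding gene. It had 10.3 to 31.0 in cocaine and 3.76 to 8.27 in saline.

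Not all of these followed cocaine 5 and 6. The site near Myom2 had 30.1, 33.3, 34.2, 38.9, 39.8 and 23.9 in cocaine 1 to 6 and 17.9, 22.9, 16.1 and 15.0 in saline 1 to 4. Cocaine 6 was the lowest cocaine library there, and the ratio without cocaine 5 and 6 was 0.89, against 0.86 with them. The site near Sfxn3, inside Pdzd7, had 25.7 to 45.8 in cocaine and 18.5 to 22.6 in saline, with cocaine 6 lowest and cocaine 2 highest.

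The higher sites differed among themselves by enrichment. Of the 26 with an enrichment of at least 2 in cocaine, 25 stayed at least 1.5-fold higher without cocaine 5 and 6, 10 did not overlap between groups and 5 lay in a called cocaine peak. All 5 sites led by cocaine 2 and 6 were among these 26, and with cocaine 2 left out too, 19 of the 26, and 54 of all 126 higher sites, were at least 1.5-fold higher. Of the 100 with a lower enrichment, 20 stayed at least 1.5-fold higher, 6 did not overlap and 67 lay in a called cocaine peak. The median log2 ratio without cocaine 5 and 6 was 0.88 in the first set and 0.29 in the second. Enrichment and count come from the same libraries, so these values describe the listed sites and were not tested.

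Called peaks lay mostly under the higher sites. The authors deposited 3467 peaks for cocaine and 725 for saline, each called on both sexes together, so that no peak has a replicate. A cocaine peak overlapped 72 of the 126 higher sites, 57.1%, and 4 of the 105 lower sites, 3.81%, by at least 1 base. The 72 became 43 when 50% of the site had to be covered and 37 with peaks of at least 5-fold enrichment, and the 4 became 2 under the first rule. A saline peak overlapped 26 higher sites and 1 lower site, and each of these also lay in a cocaine peak.

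Higher sites inside called peaks were less even between libraries than those outside, in counts that were not tested. Of the 72 higher sites in a cocaine peak, 16 stayed at least 1.5-fold higher without cocaine 5 and 6, 22.2%, and 3 did not overlap between groups. Of the 54 outside any cocaine peak, 29 stayed, 53.7%, and 13 did not overlap. The median log2 fold change was nearly the same in both, 0.965 and 0.995 in the authors' deposited table. The cocaine peaks were called with the cocaine libraries pooled, and whether cocaine 5 and 6 set them was not tested.

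**Figure D4:**
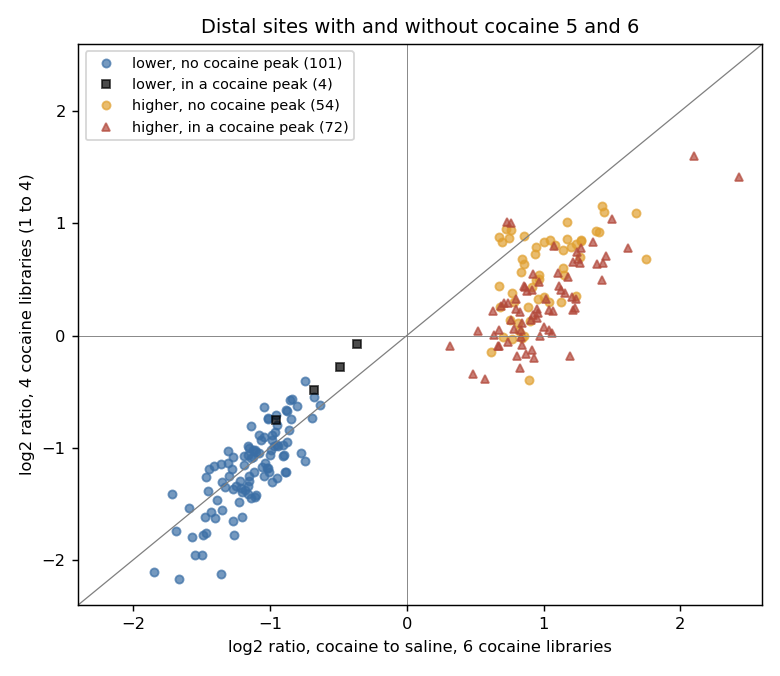
Log2 ratio of the cocaine mean to the saline mean, both plus 1, with all 6 cocaine libraries on the horizontal axis and with cocaine 1 to 4 alone on the vertical axis, 1 point per site; the grey diagonal marks equal values. Lower sites lie along the diagonal, with medians of -1.12 and -1.15, whereas most higher sites lie below it, with medians of 0.94 and 0.38, and 21 of them fall below 0 on the vertical axis.

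The peak with the highest fold enrichment over any distal site lay near Nudt12os, with 23.1-fold enrichment in cocaine and 5.63-fold in saline, both the authors' values. The counts of the site were 41.0, 104.0, 42.3, 25.9, 15.5 and 34.2 in cocaine 1 to 6 and 28.8, 29.3, 19.6 and 26.3 in saline 1 to 4. Cocaine 2 was far above the rest, cocaine 5 was below all saline libraries, and the groups overlapped. The site near Olig3, a transcription factor of the developing spinal cord and hindbrain, overlapped a 9.98-fold cocaine peak. Its counts were 16.7, 18.7, 24.1, 38.9, 101.8 and 63.3 in cocaine 1 to 6 and 19.6, 26.7, 18.4 and 18.8 in saline 1 to 4, with cocaine 1 below every saline library and a log2 ratio that went from 1.04 to 0.23 without cocaine 5 and 6.

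At A730018C14Rik, inside the long noncoding RNA gene Gm29890, the peak was as strong in saline, at 9.05-fold, as in cocaine, at 8.22-fold. The counts were 39.1, 33.3, 30.2, 62.2, 33.2 and 10.3 in cocaine 1 to 6 and 14.1 to 24.4 in saline, so that 5 cocaine libraries lay above the saline range and cocaine 6 below it. The site near BC048507 overlapped peaks of 8.74-fold in cocaine and 4.10-fold in saline and had 49.9 to 170.4 in cocaine and 48.3 to 73.3 in saline, with a ratio of 0.71 that became 0.29 without cocaine 5 and 6. Near 2010315B03Rik, under a 9.17-fold cocaine peak, cocaine 6 had 287.3, whereas the other cocaine libraries had 36.4 to 80.4 and saline 59.5 to 78.9. Its log2 ratio went from 0.49 to -0.34 without cocaine 5 and 6.

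The sites with the highest counts differed least without those libraries. A mean above 100 in cocaine was found at 19 higher sites, of which 2 stayed at least 1.5-fold higher without cocaine 5 and 6 and 7 turned direction. The median enrichment of the 19 in cocaine was 1.1 in the authors' deposited table, and no list of regions with high signal in every experiment was applied. The highest stood 1197113 bases from the start of Lrrc4c, a postsynaptic adhesion protein that binds netrin-G. Its enrichment was 1.02 in cocaine and 0.79 in saline in the authors' deposited table. Its counts were 1808, 1208, 2244, 2894, 5104 and 7775 in cocaine 1 to 6 and 2053, 1630, 2021 and 2215 in saline 1 to 4. Cocaine 5 and 6 were the 2 highest libraries, cocaine 1 and 2 lay within or below the saline range, and the log2 ratio went from 0.82 to 0.04. A second site 801 bases on had 177.9 to 937.0 in cocaine and 181.9 to 236.8 in saline, and its ratio went from 0.89 to 0.26. The enrichment of this second site was 1.15 in cocaine and 0.83 in saline in the authors' deposited table. At the site near Ly6c2, a surface protein of blood cells, the ratio of 0.85 became 0.00.

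The farthest sites stood over 1 Mb from any start and had both directions. The farthest of all, 1341063 bases from the start of Efnb2, a ligand of Eph receptors, was lower, with 0 to 11.1 in cocaine and 10.2 to 28.2 in saline. The groups overlapped by 1 cocaine library, cocaine 3, which stood above saline 2. The site near 4930524C18Rik, 1237665 bases upstream, was higher, with 142.4, 78.0, 147.9, 221.7, 298.7 and 289.0 in cocaine 1 to 6 and 132.5, 138.0, 95.9 and 139.1 in saline 1 to 4. Cocaine 2 lay below all saline libraries there, and the ratio went from 0.63 to 0.22 without cocaine 5 and 6.

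Genes of neuronal function were taken from 8 lists of known genes, chosen with earlier results of these data known. Of 78 genes of synaptic adhesion and axon guidance, 12 were nearest to any listed site and 5 to a distal one, with 3 lower and 4 higher sites. The median log2 fold change in the authors' deposited table was -1.42 for the 3 lower and 0.825 for the 4 higher sites, beside -1.19 and 0.985 over all distal sites. The groups did not overlap at 2 of the 3 lower sites, beside 40% of the lower distal sites, and at 0 of the 4 higher ones, beside 12.7%, and sites this few show no difference from those shares.

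Sites near Csmd3, a large membrane protein of synapses and dendrites, and Ctnna2, the neuronal alpha-catenin that links cadherins to actin, occurred in both directions. The lower Csmd3 site had 2.21 to 16.6 in cocaine and 17.4 to 22.6 in saline without overlap, whereas the higher one, 2120400 bases away, had 35.4 to 110.6 in cocaine and 39.9 to 56.4 in saline with overlap. The lower Ctnna2 site had 3.42 to 12.8 in cocaine and 16.5 to 26.1 in saline without overlap. The higher Ctnna2 site, 280700 bases away, had 37.4 to 111.1 in cocaine and 28.0 to 42.0 in saline, with cocaine 2 and 4 inside the saline range. Ptprz1, a receptor phosphatase of glia, was the third gene nearest to sites in both directions, 148400 bases apart. In each of the 3 genes the higher site was led by cocaine 5 and 6, and without them its log2 ratio was 0.04 near Csmd3, 0.44 near Ctnna2 and -0.18 near Ptprz1.

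Of the other adhesion genes, the site near Epha5, an Eph receptor, had 0 to 13.3 in cocaine and 10.7 to 39.5 in saline. The site near Tenm3, a teneurin of synaptic partner choice, had 11.5, 22.9, 35.2, 29.8, 97.4 and 41.0 in cocaine 1 to 6 and 10.3 to 22.6 in saline. Cocaine 5 held the high value there, and the log2 ratio went from 1.18 to 0.53 without cocaine 5 and 6. The site near Cntn1, a contactin of axons, had 73.0 and 53.0 in cocaine 5 and 6, 13.5 to 25.0 in the other cocaine libraries and 15.4 to 25.0 in saline, and its ratio of 0.74 became -0.06.

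Of 30 cadherin and protocadherin genes, Cdh18 had a lower and Cdh9 a higher site. The Cdh18 site had 0 to 13.0 in cocaine and 11.9 to 22.6 in saline. The Cdh9 site had 37.2, 35.4, 31.2, 36.3, 35.4 and 10.3 in cocaine 1 to 6 and 13.6, 17.8, 17.3 and 22.6 in saline 1 to 4. All cocaine libraries but cocaine 6 lay above the saline range, and the ratio was 0.77 with all libraries and 0.94 without cocaine 5 and 6.

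Of 64 transcription factors of neural development, 3 were nearest to a distal site. The site near Bcl11a, a zinc-finger repressor, lay in the noncoding gene A830031A19Rik and had 0 to 8.85 in cocaine and 8.82 to 20.7 in saline. The site near Nr4a1, a nuclear receptor induced by neuronal activity and the 1 of 29 activity-regulated genes nearest to a distal site, had 19.2, 10.4, 13.1, 10.4, 13.3 and 10.3 in cocaine 1 to 6 and 29.3, 22.9, 24.6 and 28.2 in saline 1 to 4. The groups did not overlap, although Grasp was the nearer protein-coding gene in RefSeq, 7146 bases away. The higher site near Tcf4, a basic helix-loop-helix factor, had 37.2, 18.7, 18.1, 25.9, 35.4 and 34.2 in cocaine 1 to 6 and 12.0, 17.8, 13.4 and 11.3 in saline 1 to 4, and its groups did not overlap by a margin of less than 1 read.

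Of 50 genes of the cell cycle, DNA replication and known E2F targets, 7 were nearest to a listed site and 2 to a distal one. The site near Cdkn1a, the cell-cycle inhibitor p21, was higher, with 12.2, 1.04, 18.1, 22.0, 66.4 and 37.6 in cocaine 1 to 6 and 9.78, 13.4, 13.1 and 20.7 in saline 1 to 4. Cocaine 2 lay below all saline libraries, and the ratio of 0.84 became -0.08 without cocaine 5 and 6. The site near the histone gene H2bc23 was lower without overlap, with 4.43 to 12.1 in cocaine and 14.0 to 20.7 in saline, and covered the transfer RNA gene n-TIaat11.

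The other lists held few of these genes. Of 36 glutamate receptor and postsynaptic genes 1, Grm3 as above, was nearest to a distal site, and of 30 medium spiny neuron and dopamine genes 1, Pde4d, a phosphodiesterase of cyclic AMP. The Pde4d site was lower, with 4.16 to 19.9 in cocaine and 18.8 to 29.9 in saline. Of 58 ion channel genes, 8 were nearest to a listed site and 0 to a distal one outside runs.

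Distal sites within 100 kb of each other mostly went the same way. Of the 231 sites, 190 had no other listed site that near. In 13 groups 2 distal sites stood together, 8 pairs with both higher, 4 with both lower and 1 mixed. The bases between them ran from 101 near Ulbp3 to 93801 near 4930431P22Rik, and whether the closest pairs are separate sites was not tested. Neighbours that were not distal sites were left out of this count. The mixed pair lay 47401 bases apart between Fam43b and Camk2n1, an inhibitor of the kinase CaMKII. The site near Fam43b had 2.01 to 11.5 in cocaine and 12.7 to 28.2 in saline without overlap. The site near Camk2n1 had 25.0, 34.3, 31.2, 25.9, 22.1 and 12.0 in cocaine 1 to 6 and 17.9, 14.6, 9.98 and 18.8 in saline 1 to 4, with cocaine 6 inside the saline range. A pair of lower sites near Ccnh lay in the long noncoding RNA gene Gm34196, with cocaine means of 13.7 ± 2.92 and 16.8 ± 6.26 (SD, n = 6) against saline means of 27.7 ± 6.87 and 36.6 ± 17.7 (SD, n = 4). Both Gpm6a sites were higher and both had log2 ratios without cocaine 5 and 6 below 0, at -0.15 and -0.03.

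By RefSeq gene models, 18 lower and 18 higher sites overlapped a gene in spite of the distal annotation. Among them 10 lower and 10 higher sites lay in long noncoding RNA genes. Lower sites in such genes all stayed at least 1.5-fold lower without cocaine 5 and 6, beside 99 of all 105 lower distal sites. Of the 10 higher ones, 6 stayed at least 1.5-fold higher, beside 45 of all 126 higher distal sites. With sites this few, the differences from those shares were not tested. More than 500 kb from any protein-coding gene stood 7 lower and 11 higher sites.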

How the data were processed

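E2F3a CUT&RUN values were analysed at the sites that the authors listed as differing between cocaine and saline. The genome build is mm10, per the submitters' processing notes. The aligner, the peak and site settings, the diffReps release and the role of IgG were not given in the sources used here. For each site the deposited table, which comes, per the file headers, from diffReps with a negative binomial test, gives normalized counts of 6 cocaine and 4 saline libraries, the mean count of each group as a signal, an enrichment ratio whose background is not named, a log2 fold change and p-values. The authors' peak files give a fold enrichment, a −log10 q-value and a score for each peak, called on both sexes together, per the names the authors gave the files.

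Distal intergenic sites were taken from the table's annotation, without runs of 5 or more sites joined by gaps below 100 kb. Direction followed the 2 group means. Library values were compared as log2(normalized count + 1). Reads were recovered from the step of each library, and 100.0% of values up to 20 reads were whole within 0.1 step. No filter on sites was applied, including any list of regions with high signal in every experiment. limma 3.58.1 in R 4.3.3 was fitted across all 956 listed sites with Benjamini-Hochberg adjustment, after tests on simulated data. The steps ran in Python 3.11.15 with numpy 2.4.6, pandas 2.3.3 and scipy 1.17.1. The 2 libraries whose title and treatment label disagree were left in no group.

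The members, gene lists and alternatives were chosen with earlier results of these data known. Named sites were the 8 lower and 8 higher with the smallest adjusted p, ties broken by the larger fold change (7 of the 8 higher came from 30 tied sites), the 4 farthest from a start, the 2 in each direction with the highest count, the 8 under the peaks with the highest fold, and up to 4 per gene list. Sites shown for non-overlap, for lying in pairs or for being led by cocaine 2 and 6 were picked after their values were seen. Alternatives were other run rules, thresholds, pseudocounts, peak overlaps, limma and the omission of each library.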

Additional observations from a re-analysis of the deposited data

Results flagged for a closer look

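Among the 41 named distal sites, 82 groups of library values were examined for a library far from the rest of its group, and 11 were found. Chance flags about 1 in 20 groups where the groups were not picked by their values. Many of the named sites were picked by fold change, count or peak, so the 11 cannot be read as an excess over that rate. Cocaine 6 was the odd library in 5 of the 11. It was high at 208.61 near 4933427E13Rik, 937.03 at the second Lrrc4c site, 126.53 near Akap13 and 287.26 near 2010315B03Rik, and low at 10.26 near Cdh9. Cocaine 1 stood apart at 19.24 near Nr4a1, cocaine 2 at 104.01 near Nudt12os and cocaine 5 at 97.35 near Tenm3. Among the saline libraries, saline 2 stood apart at 26.71 near Olig3, saline 3 at 95.92 near 4930524C18Rik and saline 4 at 3.76 near Pramel50. At Nr4a1 the library that stood apart was the cocaine library nearest to the saline values, and its groups still did not overlap.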

How the results depend on the processing

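No paired analysis was possible because the library values in the table carry no replicate numbers or names. Over 76 recomputed values, 10 moved by more than the spread between libraries or, for counts, by more than 1.5 times, and the causes were not tested. The median log2 ratios kept their sign in every alternative, whereas counts have no direction to change. Single sites did turn. Without cocaine 5 and 6, 21 of the 126 higher distal sites changed direction, and the share of higher sites went from 54.5% to 45.5%. The number of higher sites called fell from 125 to 60 when a log2 fold change of 1 or more in size was required, to 19 with limma and to 21 with a quasi-Poisson test on recovered reads, which was added after the data were seen. The number of higher sites without overlap ran from 16 to 31 when 1 library was left out, the most without cocaine 2. That of lower sites rose from 42 to 66 without cocaine 5 and 6, also added, and ran from 45 to 59 with 1 library left out. Leaving out a library can only keep or raise a count of sites without overlap, so the direction of these changes was fixed in advance. The median log2 ratio of lower sites went from -1.12 to -0.88 with a pseudocount of 5 and ran from -1.18 to -0.98 with 1 library left out, the latter without saline 4; that of higher sites ran from 0.76 to 1.10 and fell from 0.94 to 0.38 without cocaine 5 and 6, within the wide spread of those libraries. Lower calls went from 102 to 73 with limma. Higher sites in a cocaine peak fell from 72 to 43 when 50% of the site had to be covered and to 37 with peaks of at least 5-fold, and lower sites from 4 to 2 under the first rule. Few reads limit the lower sites, with medians of 4 to 15 reads in the cocaine libraries.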

Other observations

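Transfer RNA genes of RefSeq lay under 6 listed sites, which went in opposite directions by place. The 2 distal sites among them, both on chromosome 13, were lower. The one over n-TIaat11, near H2bc23, had a cocaine mean of 7.19 ± 2.89 (SD, n = 6) against a saline mean of 16.6 ± 2.89 (SD, n = 4), without overlap. The one over n-TVcac2, near Abt1, had 5.77, 7.28, 9.05, 5.19, 0 and 20.5 in cocaine 1 to 6 and 15.8, 21.0, 18.03 and 22.6 in saline 1 to 4, with cocaine 6 inside the saline range. The other 4 listed sites over transfer RNA genes stood together in a run on chromosome 1 and were all higher. These sites were picked out after their values were seen.

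Receptor genes of smell, taste and pheromones were the nearest genes of 10 distal sites, 9 of them higher and 1 lower. The higher ones lay near Or1e25, Or11h7, Vmn1r2, Vmn1r3, Vmn1r34, Vmn1r77, Vmn1r238, Vmn2r87 and Tas2r139, and 6 of the 9 lay in a called cocaine peak. Without cocaine 5 and 6, 1 of the 9, the Tas2r139 site, stayed at least 1.5-fold higher, and the median log2 ratio of the 9 was 0.32. Within 200 kb of the first assembled base of a chromosome lay 4 higher and 0 lower sites, 2 near Ulbp3 and 1 each near Vmn1r2 and Vmn1r238. All 4 lay in a called cocaine peak, and 0 of them stayed at least 1.5-fold higher without cocaine 5 and 6. This group was also picked out after its values were seen.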
